A study of Arabidopsis thaliana with 8 samples.

Results

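ENAP1 is a nuclear protein of Arabidopsis that associates with EIN2 and with histones. This section concerns the ENAP1 regions that lie deep inside gene bodies, away from the gene ends where most ENAP1 regions sit. A region was counted as deep when its summit, the position of highest ChIP signal, lay inside a nuclear protein-coding gene and more than 500 bp from both ends of every protein-coding gene. By this rule 187 of 3293 regions were deep in the ethylene list and 321 of 4526 in the air list, which is 5.68% and 7.09% of the lists (exact 95% intervals 4.91 to 6.53 and 6.36 to 7.88).

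The data were ChIP-seq of ENAP1 in whole Col-0 seedlings of the ein3 eil1 double mutant, precipitated through a GFP antibody. All seedlings spent 3 days in darkness at 24 °C and were then kept for 4 h in air with 10 ppm ethylene or in hydrocarbon-free air alone. The groups were ethylene ChIP, ethylene input, air ChIP and air input, with 2 samples each, and every group carried both mutations. The tagged construct, its promoter and the origin of the samples of a group (separate cultures or not) are not named in the labels.

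Ethylene is perceived by receptors at the endoplasmic reticulum that restrain EIN2. When ethylene binds, a part of EIN2 moves to the nucleus, where EIN3 and EIL1 act as the transcription factors of the pathway. ENAP1 is known as a partner of EIN2 in the nucleus that also associates with histones.

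Each treatment had 1 joint peak list made from both ChIP samples, and neither list holds a value per sample. No region was therefore tested between ethylene and air, and absence from a list does not show absence of ENAP1. Intervals on shares cover counting error only, since regions of a list are not replicates. The fold enrichment is the authors' deposited value, which divides the ChIP pile-up plus 1 by the input-derived background plus 1 where the pile-up is highest. Its scale belongs to each list. The pile-up and background solved from the deposited fold and p showed that pile-up came in steps of 0.602 in the ethylene list and of 1.0 in the air list, so a read counted for less in ethylene. Deep summits were covered by 71 to 291 reads (median 163) in ethylene and by 23 to 153 reads (median 56) in air.

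Deep gene bodies held few regions for their length. The parts of protein-coding genes that are more than 500 bp from any gene end added up to 38.2 Mb and held 4.90 regions per Mb in the ethylene list and 8.41 per Mb in the air list. The parts within 500 bp of an end, 26.3 Mb, held 89.9 and 118 regions per Mb. Between 400 and 500 bp from an end the density was already down to 14.2 and 20.8 per Mb. Beyond the limit it was lower still but did not fall at every step. It was 8.19 and 14.1 per Mb at 500 to 600 bp, 8.60 and 13.0 at 600 to 700 bp, 7.23 and 13.4 at 700 to 800 bp, 3.56 and 6.83 at 800 to 900 bp, and 4.36 and 8.39 at 900 to 1000 bp. Farther in it was 4.02 and 6.93 at 1000 to 1500 bp, 3.26 and 5.86 at 1500 to 2000 bp, and 1.78 and 2.38 at more than 2000 bp.

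**Figure D1:**
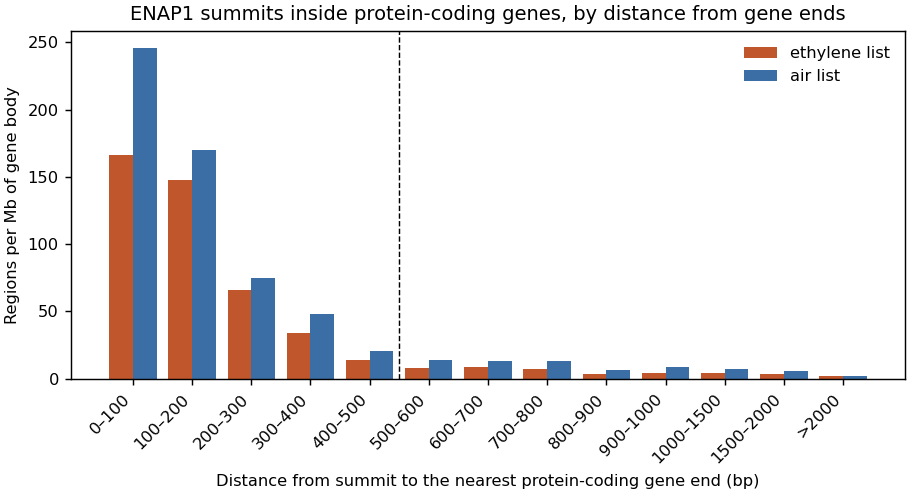
Regions per Mb of protein-coding gene body (y axis) by distance in bp from the summit to the nearest protein-coding gene end (x axis), with ethylene bars left of air bars and a dashed line at the 500 bp limit. Density was 166 per Mb in the ethylene list and 246 per Mb in the air list within 100 bp of an end, and at most 8.60 and 14.1 per Mb beyond 500 bp.

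Just inside the limit, the 5 nearest ethylene members lay 501 to 512 bp from an end, at AT3G52500, BAM1, AT2G46940, CYP86A8 and LYK4, with fold enrichments of 1.87 to 2.34. Just outside it, at 487 to 495 bp, lay AT5G62140, AT4G12270, AT2G32150, AT3G16230 and RSW10, with 1.97 to 4.43. In air the nearest members lay 503 to 508 bp from an end, at EXO70H7, AT5G67150, ADT5, EXL4 and SR1 (2.97 to 5.72). Outside, at 491 to 498 bp, lay AT1G74940, HEXO3, MEE59, AT2G34340 and AT2G27830 (3.64 to 4.64). The values on both sides of the limit overlapped, so the limit divided a continuous range.

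The members with the highest enrichment were found in both lists. TPS10 (AT1G60140), a gene of the trehalose-phosphate synthase family, held the highest deep region of each. Its fold enrichment was 7.26 in ethylene (chromosome 1, 22180596 to 22180904, TAIR10, rank 14 of 3293) and 16.3 in air (22180634 to 22180964, rank 27 of 4526). The summits of these regions were 1 bp apart and lay 979 and 980 bp from the nearer end of a gene of 4807 bp, under 208 reads in ethylene and 89 in air. The second highest member of both lists was AT1G47570, with 6.90 in ethylene (chromosome 1, 17478552 to 17479042) and 13.6 in air (17478560 to 17478797), and summits 4 bp apart.

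Below these the order of the lists differed. In ethylene the next members were AT3G46845 (6.17), AT2G41470 (5.94), the lignin gene CCR1 for cinnamoyl-CoA reductase (5.09), UMAMIT45 of a family of amino acid transporters (5.03), AT4G18030 (4.97), AT1G05370 (4.91), AT5G27730 (4.78) and ATMAP65-6 (4.5). In air they were ATMAP65-6, which encodes a microtubule-associated protein (13.4), AT3G49900 (13.3), EMB2756 (12.5), AT4G28940 (12.3), the clock regulator gene TIC (11.6), AT2G41470 (11.0), AT2G31990 (11.0) and GLL22 (10.9). All 20 of these regions overlapped a region of the other list, which was usual at high fold. In the highest fold quartile of the whole ethylene list, 91.7% of deep and 93.6% of other regions overlapped the air list. In air these shares were 94.1% and 94.5%. Among the 10 highest of both lists were 4 genes, namely TPS10, AT1G47570, AT2G41470 and ATMAP65-6. Some pairs stood far apart in rank. CCR1 was at rank 156 in ethylene and 1940 in air (fold 5.34). AT3G49900 was at rank 1785 in ethylene (fold 2.78) and 82 in air.

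Between the lists, most ethylene members had an air counterpart and most air members had no ethylene one. Of the 187 deep ethylene regions 145 overlapped an air region by at least 1 bp, or 77.5% (exact 95% interval 70.9 to 83.3), where the share over the whole ethylene list was 80.6%. Of the 321 deep air regions 140 overlapped an ethylene region, or 43.6% (38.1 to 49.2), where the share over the whole air list was 58.7%. Among all other regions the shares were 80.8% (79.4 to 82.2) in ethylene and 59.9% (58.4 to 61.4) in air. In ethylene the interval of the deep regions held the value of the others, and in air the intervals did not meet. The lower air share was not particular to deep regions. For air summits inside genes it was 64.9% within 100 bp of an end, but 50.2% at 300 to 400 bp and 46.9% at 400 to 500 bp. Beyond the limit it varied, with 32.0% at 900 to 1000 bp, 52.2% at 1000 to 1500 bp and 66.7% of the 12 regions beyond 2000 bp.

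The shares depended on the strength of the regions. By fold quartile of the whole air list, from lowest to highest, deep regions overlapped the ethylene list in 15.3%, 42.4%, 70.0% and 94.1%, and all other air regions in 27.7%, 44.7%, 70.0% and 94.5%. The intervals were apart in the lowest quartile (9.83 to 22.2 for deep, 25 to 30.6 for other regions), and it held 144 of the 321 deep air regions, or 44.9%, against 23.5% of the others. In the ethylene list the shares from the lowest to the highest quartile were 91.3%, 65.7%, 55.3% and 91.7% for deep regions and 87.2%, 67.6%, 75% and 93.6% for the others. There the intervals were apart in the third quartile (40.1 to 69.8 for 47 deep regions, 71.8 to 78.0 for the others). A cut by significance was also made, with both lists reduced to regions at or above their own median −log10 q. A region whose counterpart fell below that median then counted as having none. On this count 67.4% (56.5 to 77.2) of deep and 78.9% (76.8 to 80.9) of other ethylene regions overlapped a kept air region. In air these shares were 38% (30.2 to 46.3) for deep and 58.5% (56.4 to 60.7) for other regions. The gap between deep and other regions was wider in both lists than over all regions, and in ethylene the intervals still met. This setting mixes overlap with the significance of the counterpart. It does not show that more significant deep regions overlapped the other list less often.

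**Figure D2:**
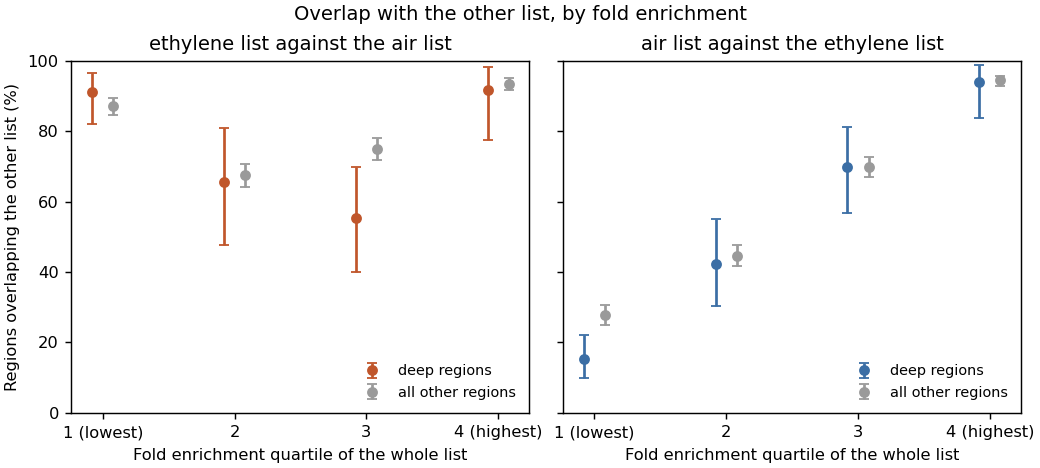
Percent of regions that overlap the other list by at least 1 bp (y axis) in each fold enrichment quartile of the whole list (x axis), for the ethylene list at left and the air list at right; coloured points are deep regions, grey points all other regions, and bars exact 95% intervals. In air, deep regions lie below the others in the lowest quartile (15.3% and 27.7%) and beside them in the highest (94.1% and 94.5%).

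Where regions overlapped, most summits lay close together, though those at AT4G18670 were 722 bp apart. The pairs were chosen by overlap, which by itself favours close summits. Of the 145 deep ethylene regions with an air counterpart 139 met a region that was deep as well, and these 139 pairs lay in genes such as TIC, DMR6 and PIN4. In 128 pairs, or 92.1%, the summits were at most 50 bp apart, and the median shift was 16 bp for deep ethylene regions, as it was for all other ethylene regions. The fold of the air region was the higher one in all 139 pairs (median 2.68 in ethylene and 5.65 in air), which the different scales of the lists do not allow to be read as stronger binding. Across the 139 pairs Spearman's rho between the ethylene fold and the air fold was 0.49, a description over regions that are not independent samples.

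**Figure D3:**
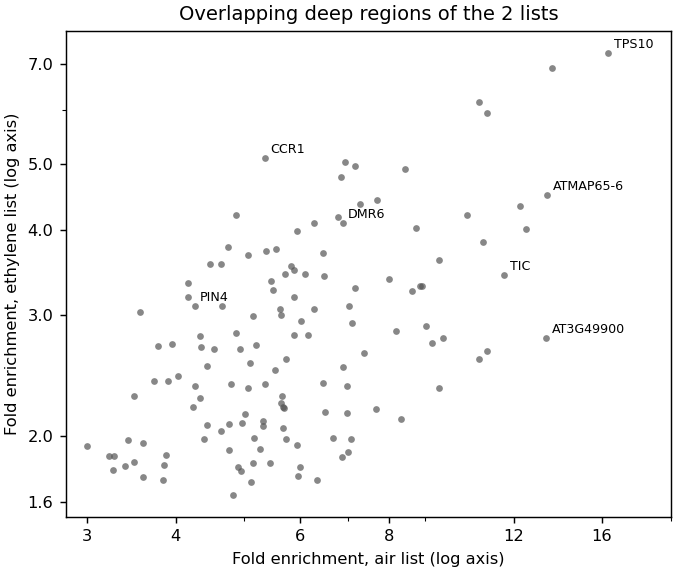
Fold enrichment in the ethylene list (y axis, log) against that in the air list (x axis, log) for the 139 pairs of overlapping deep regions, 1 point per pair. TPS10 is highest on both axes (7.26 in ethylene and 16.3 in air), while AT3G49900 is high in air (13.3) and near the middle in ethylene (2.78).

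In 6 pairs the ethylene summit was deep and the air summit was not, at GLIP5, AT5G44060, HEXO3, BAM1, LYK4 and AT3G52500. The reverse held once, at AT4G12270. At BAM1, a gene of a CLAVATA1-related receptor kinase, the summits lay 503 bp from the end in ethylene and 475 bp in air, so the limit alone divided that pair.

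The 42 deep ethylene regions without an air counterpart had a median fold of 2.91, against 2.66 for the 145 with one, and their median number of reads at the summit was 96.5, against 184. Their input-derived background was lower, with a median of 1.21 times the lowest value of the list, against 2.64 times. The highest were at AT2G20670 (4.19, rank 380), ICK1, a gene of an inhibitor of cyclin-dependent kinases (3.90), AT3G02500 (3.46), the flavonoid gene CHIL (3.42), ARR4, a cytokinin response regulator gene (3.39), the growth-regulating factor gene GRF8 (3.37), AT3G24460 (3.37) and AT1G67325 (3.32). For 8 of the 42, or 19%, the host gene had an air region within 500 bp of an end, where the share over all genes above 1000 bp was 20.2%, and for 2 it had a deep air region elsewhere.

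The 181 deep air regions without an ethylene counterpart had a lower fold than the 140 with one, with a median of 3.74 against 5.64, under nearly the same median number of reads (56 and 57). Their input-derived background was higher, with a median of 3.89 times the lowest value of the list, against 2.31 times. The highest were at AT1G05030 (7.66, rank 667), AT5G03380 (7.49), the receptor-like kinase gene NCRK (7.05), the ubiquinone biosynthesis gene COQ3 (6.43), AT3G26610 (6.28), AT3G50840 (6.23), PHYA (6.07) and AT1G75960 (5.84). PHYA (AT1G09570) encodes the photoreceptor phytochrome A, the main one of dark-grown seedlings. Its region (chromosome 1, 3100219 to 3100493) had 48 reads at a summit 509 bp from a gene end. For 20 of the 181, or 11%, the host gene had an ethylene region within 500 bp of an end, where the share over all genes above 1000 bp was 15.1%, and for 6 it had a deep ethylene region elsewhere.

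Deep air regions lay on a higher local background than the rest, and in both lists a high background was more frequent among deep regions. The local background is the input-derived level at the summit, given here in multiples of the lowest value of the list. That value was 15.1 in ethylene and 3.94 in air. Several deep regions of each list shared exactly this lowest value, so it acted as a floor. Its median was 2.18 times the lowest for deep and 1.85 times for other ethylene regions, and 2.91 times for deep and 2.06 times for other air regions. A background at 5 or more times the lowest was found for 22 deep ethylene regions, or 11.8% (7.52 to 17.3), where the share over the whole ethylene list was 2.55%. In air it was found for 61 deep regions, or 19% (14.9 to 23.7), where the whole-list share was 4.55%. Deep regions thus made up 26.2% (17.2 to 36.9) of the 84 such regions in the ethylene list and 29.6% (23.5 to 36.4) of the 206 in the air list. A background at this level was not particular to deep regions. For air summits inside genes its share was 1.46% within 100 bp of an end and 15.3% at 400 to 500 bp. In ethylene it was 1.95% and 5.97%, with 7.69% at 300 to 400 bp. Beyond the limit the share was uneven. In air it was 32.3% at 500 to 600 bp, 5.66% at 600 to 700 bp, 36.0% at 900 to 1000 bp and 18.8% at 1000 to 1500 bp. In ethylene it was highest at 500 to 600 bp, but 2.86% at 600 to 700 bp, and no such region lay beyond 1500 bp.

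In ethylene the highest backgrounds were at AT3G18170 (6.41 times the lowest, fold 1.64, the lowest fold of the list at rank 3293), AT3G57790 and the laccase gene LAC1 (both 5.75), the HAESA-like receptor kinase gene HSL2 (5.69) and AT1G32630 (5.53). The AT1G32630 summit also lay inside MYC2, which encodes a transcription factor of jasmonate signalling. In air they were at RUP2, a repressor gene of the UV-B response (11.3), ADS1 (10.3), LRX3 (9.35), the peptidase gene XSP1 (9.23) and WAVH1 (8.62). All 22 such ethylene members overlapped an air region, whose own background was 3.16 to 7.16 times the lowest of the air list. Of the 61 such air members 10, or 16.4% (8.15 to 28.1), overlapped an ethylene region, against 50.0% (43.8 to 56.2) of the 260 deep air regions with a lower background. Regions that were not deep behaved alike. At 5 or more times the lowest background, 60 of 62 such regions, or 96.8%, overlapped the other list in ethylene. In air 21.4% (15.0 to 29.0) did, against 61.3% of those with a lower background.

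Fold enrichment was lower in deep regions of the air list, while in ethylene the intervals of deep and other regions met. Median fold was 2.73 (95% interval 2.59 to 2.90) for deep and 2.85 (2.82 to 2.88) for other ethylene regions, and 4.36 (4.17 to 4.65) for deep and 5.10 (5.06 to 5.16) for other air regions. Below 5 times the lowest background the medians were 2.85 for deep and 2.86 for other ethylene regions. In air they were 4.78 (4.48 to 4.99) for deep and 5.16 (5.09 to 5.22) for other regions, so a smaller gap remained there. At or above it the medians were 1.82 for deep and 1.86 for other ethylene regions, and 3.27 for deep and 3.36 for other air regions. A region on a high background can pass the peak caller at a lower fold, and the part of the background in the fold difference was not tested further. In the lowest fold quartile of air, deep regions below 5 times the lowest background still overlapped the ethylene list less often, in 15.1% (8.48 to 24.0) against 30.2% (27.2 to 33.3) of the others.

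**Figure D4:**
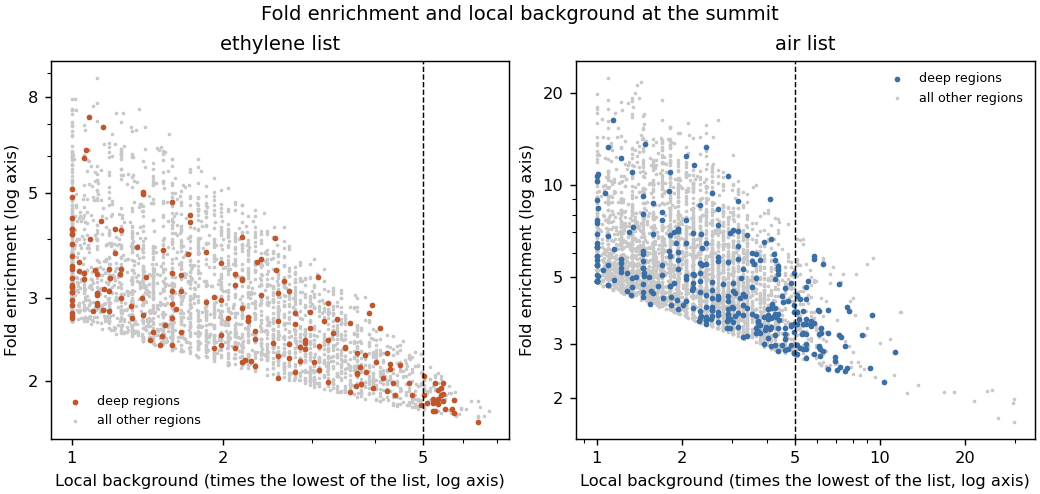
Fold enrichment at the summit (y axis, log) against local background in multiples of the lowest of the list (x axis, log), ethylene at left and air at right, with coloured points for deep regions, grey points for all other regions and a dashed line at 5 times the lowest. To the right of the line lie 11.8% of deep ethylene regions and 19% of deep air regions, against 2.00% and 3.45% of the others.

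Width did not set the deep regions apart, with a median of 233 bp for deep and 237 bp for other regions in ethylene, and 226 and 225 bp in air. The widest region of each list was a deep one. In ethylene it was the 1381 bp region inside EIN2, followed by a deep region of 1014 bp at AT5G25280, and the widest region that was not deep had 995 bp. In air it was a 1279 bp region at AT4G18670, against 1044 bp for the widest that was not deep.

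The deep regions fell in 184 host genes in ethylene and 300 in air, of which 138 hosted a deep region in both. Of the 23063 protein-coding genes over 1000 bp these are 0.798% and 1.30%. Host genes had a median length of 2884 bp in ethylene and 2772 bp in air, against 2327 bp for the other genes over 1000 bp. Per Mb of gene body beyond 500 bp from any end, the density fell with gene length. Gene length and distance from an end were not separated, since genes up to 2000 bp hold no part more than 1000 bp from an end. Genes over 1000 and up to 2000 bp held 7.54 deep regions per Mb in ethylene and 16.3 in air, genes over 3000 and up to 5000 bp 4.49 and 7.85, and genes over 5000 bp 2.34 and 2.88. Summits lay a median of 778 bp from the nearest end in ethylene and 787 bp in air, or 31.9% and 33.6% of the way along the host gene from its nearer end. Without gene orientation, the start and the end of a gene were not told apart.

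A few members lay much deeper. In ethylene the farthest summits from any gene end were at PHOT1, the gene of the blue-light receptor phototropin 1 (3174 bp, in a gene of 7490 bp), the bZIP transcription factor gene TGA4 (3055 bp), TIC (2326 bp), the mannan synthase gene CSLA02 (2304 bp) and DMR6, a gene of salicylic acid breakdown (2295 bp). In air they were at ATM, a kinase gene of the DNA damage response (11095 bp, in a gene of 27265 bp), TGA4 (3065 bp), AT5G04310 (2391 and 2380 bp for 2 regions) and DMR6 (2319 bp). TGA4 had folds of 2.94 in ethylene (chromosome 5, 3140558 to 3140814) and 6.01 in air (3140570 to 3140764) with summits 10 bp apart. DMR6 had 4.09 in ethylene (chromosome 5, 8380966 to 8381208) and 6.88 in air (8380977 to 8381190), with summits 24 bp apart. The regions at PHOT1 and ATM each rested on few reads, 72 in ethylene and 23 in air, and had no counterpart in the other list.

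Most hosts had no ENAP1 region near their ends. A region within 500 bp of an end was present in the same list for 36 of 184 hosts in ethylene, or 19.6% (14.1 to 26.0), and for 80 of 300 in air, or 26.7% (21.7 to 32.1). Over all genes above 1000 bp the shares were 15.1% and 20.2%, and over those without a deep region 15.1% and 20.1%. CCR1, UMAMIT45 and TIC had both kinds of region in both lists, whereas TPS10 had a region near an end in neither. Hosts with 2 or more RefSeq transcripts made up 52.2% (44.7 to 59.6) in ethylene and 46% (40.3 to 51.8) in air, against 45.1% and 45.2% of the other genes over 1000 bp.

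Several deep regions in 1 gene were mainly seen in air. In ethylene 3 genes held 2 each, namely ARR4, the seed oil regulator gene WRI1 and the inositol phosphatase gene IP5PII. In air 17 genes held 2 and 2 genes held 3, together 40 regions with a median fold of 3.72 and a median background of 4.31 times the lowest. Of these 40, 8 overlapped the ethylene list, where the share was 43.6% over all deep air regions and 58.7% over the whole air list. LRX3 (AT4G13340), a gene of a leucine-rich repeat extensin of the cell wall, held 3 on chromosome 4 (7758930 to 7759341, 7759449 to 7760370 and 7760523 to 7760981) with folds of 4.32, 3.75 and 2.65. AT5G23850 also held 3, with folds of 3.94, 3.57 and 3.53. Neither gene had a deep region in ethylene. Among the genes with 2 were AT3G44610 (7.01 and 5.47), AT1G14430 (5.53 and 2.50), the fatty acid hydroxylase gene CYP86A8 (5.27 and 2.86), AT1G56210 (4.90 and 3.64), and the transcription factor genes LBD37 (6.28 and 3.55), HSF4 (4.99 and 3.85) and WRKY11 (4.80 and 3.63). A background at 5 or more times the lowest was found for 18 of the 40 air regions and 1 of the 6 ethylene regions. IP5PII held 2 in both lists, with 3.68 and 2.83 in ethylene and 5.06 and 4.86 in air.

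Some deep summits coincided with a second annotated gene. In ethylene 7 of 187, or 3.74% (1.52 to 7.56), and in air 12 of 321, also 3.74% (1.95 to 6.44), lay inside a noncoding gene, and each of these was a long noncoding RNA gene. The highest in both lists was at AT3G46845, where the summit lay inside the lncRNA gene AT3G07555, and the nearest noncoding gene end was 187 bp away in ethylene and 147 bp in air. Others shared by both lists were at AT5G66650 (fold 3.45 in ethylene and 6.08 in air), AT2G05810 (3.57 and 4.47), EXO70H7 (1.98 and 5.72) and the transcription factor gene WRKY69 (2.07 and 5.32). GIL1 and AT4G05060 had one in ethylene, and NCRK, EXO70H6, AT4G31250, AT1G44120 and AT1G30280 were the highest of the air-listed ones. A summit within 200 bp of an end of a noncoding gene was found for 10 deep ethylene regions, or 5.35% (2.59 to 9.61), and 15 deep air regions, or 4.67% (2.64 to 7.59). The CCR1 summits were among these, 44 bp from such an end in ethylene and 11 bp in air. These shares were not computed for other regions or for gene bodies as a whole. Whether such a region belongs to the coding or the noncoding gene cannot be told apart from position alone.

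Of 193 loci in lists of 10 pathways and gene families, 6 held a deep region in ethylene and 3 in air, where 192 of the loci were over 1000 bp long and the share over all genes of that length was 0.798% and 1.30%. The listed genes were also longer, with medians of 3086 bp or more in each list, against 2327 bp for genes over 1000 bp without a deep region. In ethylene signalling 2 of 18 genes held one in ethylene and 0 in air. EIN2 (AT5G03280), the central regulator, carried the 1381 bp region already named (chromosome 5, 791106 to 792486) with a fold of 2.14 at rank 2887, under 203 reads and a background of 56.5, or 3.74 times the lowest. Its summit lay 1760 bp from a gene end, and no air region overlapped it. A separate region 254 bp outside an end of EIN2 had a fold of 3.01 in ethylene, and the corresponding air region, 250 bp outside, had 12.6. EIN3 (AT3G20770), 1 of the 2 genes mutated in these seedlings, held a deep region in ethylene with a fold of 2.83 (chromosome 3, 7262355 to 7262581, rank 1657, 118 reads, summit 944 bp from an end) and no air region overlapped it.

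The other lists had at most 2 members each. The auxin efflux carrier gene PIN4 (AT2G01420) was the only listed gene with a deep region in both, with 3.09 in ethylene (chromosome 2, 181539 to 181832) and 4.25 in air (181537 to 181861), and summits 2 bp apart at 1685 and 1687 bp from an end. EIR1, the gene of the auxin efflux carrier PIN2, held one in air (3.93). Of 18 genes of photoreceptors and the COP1/SPA complex, PHOT1 held one in ethylene (2.75) and PHYA in air (6.07). CHR4, 1 of 26 genes of chromatin remodelling and histone methylation, held one in ethylene (3.31), as did BAM1 among 18 receptor-like kinase genes (2.34). Members of 5 lists held none in either peak list, namely histone acetylation and deacetylation (19 genes), small RNA and DNA methylation (26), cellulose and callose synthesis (20), circadian clock (14) and cytoskeleton and motor proteins (12). The lists do not hold every gene of their kind. TIC and ATMAP65-6, with a deep region in both peak lists, were not among the listed loci. At the shares found over all genes, lists of this size would be near 0 in any case, so these counts are not results about the lists.

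By chromosome, deep regions per 100 genes over 1000 bp ranged from 0.738 on chromosome 4 to 0.960 on chromosome 2 in ethylene, and from 1.05 on chromosome 1 to 1.70 on chromosome 4 in air. These rates rest on 26 to 46 regions per chromosome in ethylene and 48 to 85 in air, and no chromosome was compared with another.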

How the data were processed

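The submitters' processing notes name the aligner BWA, the build TAIR10 and the peak caller MACS2 (2.1.0.20150603). Both ChIP samples of a treatment share 1 deposited list, which the authors called optimal by a rule not given in the sources used here. The deposited fold is the caller's ratio of pile-up to local background, and the deposited −log10 p and q come from the same program. The deposited score restates the −log10 p and was not used. Total reads per library are unknown here.

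All regions were kept. Pile-up and background at each summit were solved from the deposited fold and −log10 p with SciPy 1.17.1 (Python 3.11.15), and the pile-up was a whole number of reads within 0.01 in 100% of regions of both lists. The solver, the overlaps and the depth rule were tested on simulated data. Genes were placed and named by a RefSeq table of TAIR10.1 (27444 nuclear protein-coding genes, without strand), and all 193 listed loci were found. Where a summit lay inside 2 protein-coding genes, the region is named by the longer. Shares carry exact Clopper-Pearson 95% intervals.

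Genes are named by rule: in each list the 10 highest deep regions, the 10 highest with and the 8 highest without a counterpart, genes with several, the 5 farthest from an end, the 5 on each side of the limit, up to 10 inside a second gene, and members of the 10 gene lists. The members beyond these, such as those with the highest background or width, were named after their values were seen. The members and lists were chosen with earlier results of these data known. Motifs, sequence and exon or intron classes were not analysed here, because no genome of the build was used.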

Additional observations from a re-analysis of the deposited data

How the results depend on the processing

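Across 18 results and 134 recomputed values, 94 kept their value within its interval or, for counts, within 1.5 times. With a limit of 300 bp, 423 ethylene and 660 air regions were deep (12.8% and 14.6% of the lists) in 414 and 603 genes (1.75% and 2.54% of genes over 1000 bp), of which 11.6% and 16.1% had a region near an end. With 1000 bp these were 64 and 108 regions (1.94% and 2.39%) in 63 and 105 genes (0.273% and 0.455%), with an overlap of 84.4% and 50.9% and a median air fold of 4.86. All other regions then overlapped in 80.6% and 58.9%, so in ethylene the deep share was the higher one. In air the interval of the deep share (41.1 to 60.7) held the value of the others. The median air fold of the others was 5.06 (5.016 to 5.125), and its interval met that of the deep regions (4.45 to 5.103). With only regions at or above the median −log10 q, they were 86 and 150 regions in 86 and 148 genes (0.373% and 0.642%). Their median fold was 3.31 and 5.5, and near-end regions were present in 10.5% and 9.46% of hosts. The overlap was 67.4% and 38% (all other regions 78.9% and 58.5%). It was counted only against regions of the other list that also reached its median, so it mixes overlap with the significance of the counterpart. The host shares with a region near an end at the 300 bp limit and at the −log10 q setting stand without the share over all genes at that setting. They cannot be set against the 15.1% and 20.2% of all genes over 1000 bp at the main setting. Without regions at 5 or more times the lowest background, deep air regions were 6.02% of the list, with a median fold of 4.78 in 1.09% of genes. Using midpoints, the ends of every annotated gene or an overlap of 50% moved none of these results for deep regions. Counting only the ends of genes that hold the summit, chosen after seeing the data, gave 203 ethylene and 338 air regions. No paired analysis was possible because the lists join both samples of a treatment, and no sample could be left out either. Depth limits what absence from a list can show, and total reads per library are unknown.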
